A study of Arabidopsis thaliana with 12 samples.

Results

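Transcripts of the mitochondrial genome were followed in Arabidopsis thaliana, a cress widely used in plant genetics, on 12 ATH1 arrays, which are Affymetrix oligonucleotide arrays. The members were the probe sets whose platform annotation names 1 gene, that gene lying in the mitochondrial genome. The rule was met by 23 of the 22810 probe sets of the array, and these 23 stand for 16 of the 13355 genes that have a probe set to themselves. The gene nad1 has 7 of them, nad5 has 2 and each other gene has 1. The series concerns low, long-lasting exposure to radioactive caesium. Its arrays fall into 4 groups of 3, namely shoots of plants labelled cs, taken from the series title as the caesium-exposed (Cs) plants, shoots of control plants, roots of Cs plants and roots of control plants. Total RNA was hybridised, and the labels give every sample the developmental stage 1.0. The labels give no dose, duration, ecotype, growth conditions or number of plants per sample. They also do not say whether replicates were separate plants or cultures, and the p-values therefore cover only the spread among these arrays, part or all of which may be technical.

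The mitochondrial genome of plants encodes a small share of the proteins of the organelle. Its genes supply core subunits of the respiratory chain, part of the machinery that attaches haem to cytochrome c, a component of a protein export pathway and a protein that helps to remove introns, while most mitochondrial proteins are encoded in the nucleus and imported. In Arabidopsis several of its transcripts, those of nad1, nad2 and nad5 among them, are pieced together from separate precursor RNAs by trans-splicing. Poly(A) tails on plant mitochondrial RNA mark it for decay rather than protect it. The labels do not say how the RNA was primed for labelling.

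Of the 23 probe sets, 15 detect 8 genes of complex I, the NADH dehydrogenase through which electrons enter the chain. The genes nad1, nad2, nad4, nad4L, nad5 and nad6 encode subunits of its membrane arm, and nad7 and nad9 encode subunits of the arm that projects into the matrix. Complex IV, which passes electrons to oxygen, has 2 probe sets, 1 for its catalytic subunit cox1 and 1 for cox2, which receives electrons from cytochrome c. Cytochrome c maturation has 4, under older names, namely ccb382 (ccmFN1), ccb203 (ccmFN2) and ccb452 (ccmFC), which belong to the haem ligation machinery, and ccb206 (ccmB), a membrane component of a transporter. The last 2 are orfX (mttB), related to a subunit of the twin-arginine translocase, and matR, a maturase encoded inside a nad1 intron. All 16 genes were found in the RefSeq annotation, whose mitochondrial genome has 32 protein-coding gene symbols. The other 16, among them cob of complex III, atp1 and atp9 of the ATP synthase, cox3 and all ribosomal proteins, have no probe set naming them alone. The nuclear genome holds a near-complete copy of the mitochondrial genome, and 11 of the 12 probe sets that name a mitochondrial gene together with another gene also name a locus of that copy. Of the 23 members, 5 (matR, orfX, ccb452, nad6 and 1 of nad5) carry the suffix by which Affymetrix marks a set shared by several transcripts. Probes of this kind cannot separate RNA of the nuclear copy from RNA made in mitochondria. Probe sequences were not checked, so the other members are not shown to be free of this limit.

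Values are MAS5 signals on a linear scale, set by the scaling so that the trimmed mean of every array is 100. They were compared as log2(signal + 11), so a log2 difference understates the change of a dim probe set, and with 3 arrays a group the precision is limited by their number. Array medians lay between 41.1 and 49.6. The labelled tissues were borne out by their markers, since 6 of 6 nuclear photosynthesis genes with their own probe set were lower in root and the root markers PYK10 and EXPA7 were higher there, all past the threshold in both exposures. The summed signal of the photosynthesis markers was 23100 to 25400 in Cs shoots and 25200 to 29000 in control shoots, but differed within roots, at 723, 2390 and 437 in Cs roots 1 to 3 and 1090, 353 and 484 in control roots 1 to 3. Since whole organs were sampled, fewer cells of a type and less RNA per cell cannot be told apart.

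A probe set entered the tests if its mean signal in at least 1 tissue reached 28.0 in shoot or 31.2 in root, the 40th percentile of that tissue. This held for 11 of the 23 members (47.8%) and for 68.2% of all probe sets. Of the 11, 8 reached the limit in both tissues, nad5 257338_s_at in root alone, and ccb206 and nad1 257324_at in shoot alone. The last 3 therefore entered through 1 tissue. The 11 cover 9 genes, with 6 probe sets of complex I (nad4, nad9, 1 of nad5 and 3 of nad1), 3 of cytochrome c maturation (ccb382, ccb206 and ccb452), cox1 and orfX. In the remaining 12 no signal exceeded 40.2 on any array.

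Exposure to Cs gave no mitochondrial transcript past the threshold in shoots. In limma with Benjamini-Hochberg adjustment, 0 of the 11 tested members and, without a filter, 0 of all 23 passed an adjusted p of 0.05, and so did 0% of the 15508 probe sets tested. At an unadjusted p under 0.05 there were 3 of 23 members, all with higher signals in Cs shoots (nad1 257321_at, nad1 257324_at and nad4L), where 3.07% of all probe sets reached it in either direction. Over all 23 members the log2 difference was above 0 for 18, against 53.2% of all probe sets, and its median was 0.22, against 0.01 over all probe sets. It was above 0 in each of the 11 tested, with 0.07 for orfX at the low end and 0.75 for nad1 257324_at at the high end.

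**Figure D1:**
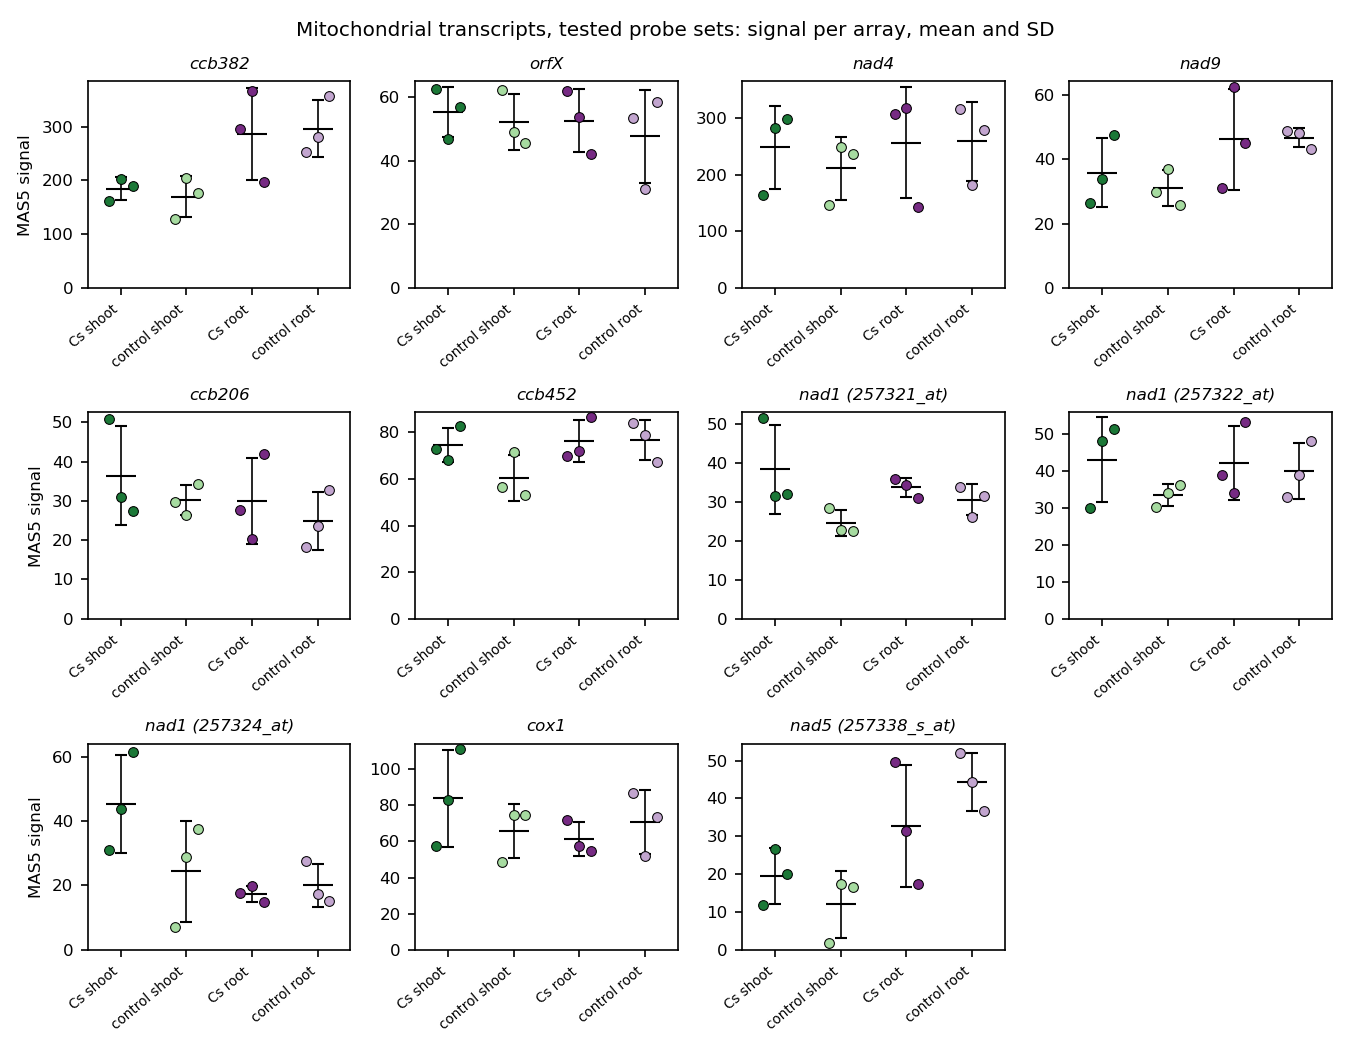
MAS5 signal (linear scale from 0) of the 11 tested mitochondrial probe sets on each array, in Cs shoots, control shoots, Cs roots and control roots, with replicates 1 to 3 drawn left to right as points and group means and SDs as black marks (n = 3 each). The groups overlap in most panels, while ccb382 and nad5 257338_s_at lie higher in control roots than in control shoots and nad1 257324_at lies lower in Cs roots than in Cs shoots.

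Among complex I genes, nad1 257321_at had signals of 51.4, 31.6 and 31.9 in Cs shoots 1 to 3, against 28.4, 22.9 and 22.5 in control shoots 1 to 3. Every Cs shoot lay above every control shoot, and the log2 difference was 0.45 ± 0.18 (SE; limma adjusted p = 1), or 0.27 without Cs shoot 1, whose signal was far above those of Cs shoots 2 and 3. The probe set nad1 257324_at gave 30.9, 43.8 and 61.4 in Cs shoots, against 7.03, 29.0 and 37.4 in control shoots. The groups overlapped, with control shoot 1 far below all others. Its log2 difference of 0.75 ± 0.33 (SE; limma adjusted p = 1) was 0.32 without that control array. The remaining tested one, nad1 257322_at, read 29.9, 48.0 and 51.2 in Cs shoots, against 30.3, 34.1 and 36.1 in control shoots. Its lowest Cs value lay under every control value, and the log2 difference was 0.26 ± 0.20 (SE).

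The signal of nad4 was 164, 282 and 299 in Cs shoots and 147, 249 and 237 in control shoots. Replicate 1 was the lowest array in both groups, and the log2 difference was 0.21 ± 0.33 (SE). For nad9, signals of 26.3, 33.7 and 47.4 in Cs shoots stood against 29.9, 37.1 and 25.9 in control shoots, which overlapped. The shared nad5 probe set, 257338_s_at, had 11.9, 26.6 and 20.0 in Cs shoots and 1.85, 17.5 and 16.7 in control shoots. Here too replicate 1 was lowest in both groups, and the log2 difference of 0.46 ± 0.34 (SE) was 0.09 without control shoot 1.

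A pair of dim complex I probe sets, outside the tests, had Cs shoots wholly above control shoots. The first, nad4L, gave 25.3, 28.9 and 34.2 in Cs shoots and 21.0, 19.8 and 16.2 in control shoots, a log2 difference of 0.43 ± 0.19 (SE; limma adjusted p = 1 without a filter). The other, nad1 257323_at, gave 25.9, 40.2 and 29.8 in Cs shoots and 17.1, 24.1 and 15.4 in control shoots, a log2 difference of 0.52 ± 0.31 (SE). With nad1 257321_at, 3 of the 23 members thus had Cs shoots wholly above control shoots and 0 had them wholly below, where 4.66% of all probe sets lay wholly above and 2.57% wholly below. Set against the control shoot of the same number, the Cs shoot was higher in all 3 pairs for 10 of the 23 members, among them the tested nad4, cox1, nad5 257338_s_at, nad1 257321_at and nad1 257324_at, and lower in all 3 for 1. Of all probe sets 15.5% were higher and 11.2% lower in all 3 pairs, and this count was added after the values were seen. With the replicate number as a block in the shoot arrays, 0 of the 11 tested members passed, and the adjusted p of these 5 lay between 0.708 (nad1 257324_at) and 0.868 (cox1). The 7 nad1 probe sets share a gene and are not separate genes. Of these 7, 5 were higher and 2 lower in Cs shoots, and the other 16 members split into 13 higher and 3 lower, with a median log2 difference of 0.16.

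The tested members outside complex I had log2 differences of 0.07 to 0.28. For cox1, signals were 57.4, 82.9 and 111 in Cs shoots and 48.7, 74.5 and 74.3 in control shoots, again with replicate 1 lowest in both. Its log2 difference was 0.28 ± 0.23 (SE). For ccb382 the signals were 162, 203 and 189 in Cs shoots and 128, 204 and 176 in control shoots, which overlapped, with a log2 difference of 0.14 ± 0.23 (SE). For ccb452, the least variable tested member in shoots, signals of 73.0, 68.3 and 82.5 in Cs shoots stood against 56.6, 71.5 and 53.2 in control shoots. Only control shoot 2 reached into the Cs range, and the log2 difference was 0.27 ± 0.15 (SE). The signals of ccb206 (50.8, 31.0 and 27.5 in Cs shoots, 29.8, 26.5 and 34.3 in control shoots) and of orfX (62.5, 46.8 and 57.0 in Cs shoots, 62.3, 49.0 and 45.6 in control shoots) overlapped, with log2 differences of 0.18 ± 0.24 and 0.07 ± 0.21 (SE).

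Summarised per array, the median of log2(signal + 11) over all 23 members was 5.20, 5.32 and 5.35 in Cs shoots 1 to 3, and 4.83, 4.95 and 4.83 in control shoots 1 to 3. The 3 Cs shoots lay above the 3 control shoots, which is a description, with no test made on it. The summed signal of the 11 tested members overlapped, at 865 ± 132 in Cs shoots and 714 ± 128 in control shoots (SD, n = 3 each). The 95% intervals of the tested members' log2 differences reached down to -0.51 and up to 1.47, with a median half-width of 0.50. The plastid-encoded transcripts, the RNA of the other organelle with its own genome, had a median log2 difference of 0.03 over 68 tested probe sets in the same comparison.

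**Figure D2:**
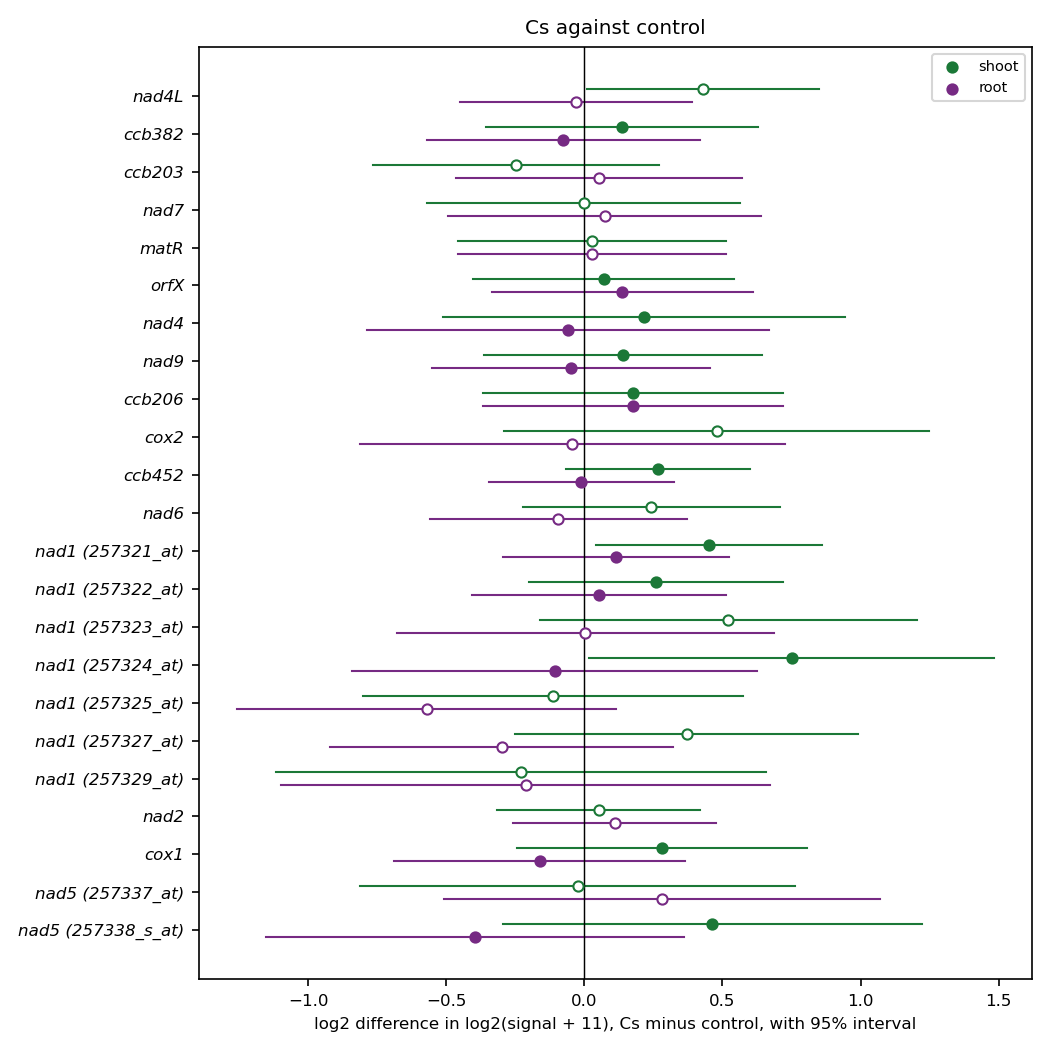
Log2 difference between Cs and control plants (x axis, on log2(signal + 11), Cs minus control) for all 23 mitochondrial probe sets in shoot (green) and root (purple), with 95% intervals from the fit without a filter. Filled points are the 11 tested probe sets and open points the 12 dim ones; in shoot 18 points lie right of 0 and in root 10, and none passed the threshold.

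In roots the same transcripts showed no common direction. No member passed the threshold (0 of 11 tested and 0 of 23 in limma without a filter, against 0% of all probe sets), and 0 of 23 reached an unadjusted p under 0.05, where 4.48% of all probe sets did. Of the 23, 10 had higher and 13 lower means in Cs roots, where 52.8% of all probe sets were higher, with a median log2 difference of -0.03. In 0 of the 23 did the Cs roots lie wholly on one side of the control roots, where 9.45% of all probe sets did so.

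The tested differences ranged over -0.39 for nad5 257338_s_at and 0.18 for ccb206. For nad5 257338_s_at the signals were 49.6, 31.4 and 17.4 in Cs roots, against 52.0, 44.3 and 36.7 in control roots. The groups overlapped, with Cs root 3 far below the others, and the log2 difference had an SE of 0.34. For ccb206 they were 27.6, 20.4 and 41.9 in Cs roots and 18.2, 23.7 and 32.7 in control roots, which overlapped. The gene nad4 had 307, 318 and 143 in Cs roots and 316, 181 and 279 in control roots. One array in each group, Cs root 3 and control root 2, was well below the others, and the log2 difference of -0.06 ± 0.33 (SE) was 0.30 without Cs root 3. Likewise ccb382 read 295, 367 and 197 in Cs roots and 252, 281 and 356 in control roots, with Cs root 3 the lowest of all 6, and its log2 difference of -0.08 ± 0.23 (SE) was 0.16 without that array.

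The other tested members overlapped as well. The signals of nad9 were 31.0, 62.3 and 45.1 in Cs roots and 48.8, 48.0 and 43.3 in control roots. Those of nad1 257321_at were 35.8, 34.4 and 31.1 in Cs roots and 33.9, 26.1 and 31.5 in control roots, and those of nad1 257322_at 38.9, 34.1 and 53.3 in Cs roots and 32.9, 38.9 and 48.1 in control roots. The third tested nad1 probe set, 257324_at, was dim in both groups, with 17.7, 19.8 and 14.8 in Cs roots and 27.5, 17.2 and 15.3 in control roots. For cox1 the signals were 71.8, 57.4 and 54.5 in Cs roots and 86.7, 52.0 and 73.4 in control roots. The signals of ccb452 were 69.9, 72.1 and 86.7 in Cs roots and 84.2, 79.0 and 67.4 in control roots, and those of orfX were 61.9, 53.8 and 42.3 in Cs roots and 53.6, 31.1 and 58.7 in control roots. The summed signal of the 11 was 936 ± 183 in Cs roots and 957 ± 118 in control roots (SD, n = 3 each). Plastid-encoded transcripts had a median log2 difference of 0.25 here, and their levels and the photosynthesis markers varied widely between root arrays, whose part in the root results was not tested.

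The Cs effect was then compared between the organs directly, as the difference in roots minus the difference in shoots. In limma 0 of the 11 tested members passed, as did 0% of all probe sets, and 0 of all 23 reached an unadjusted p under 0.05 without a filter, where 3.1% of all probe sets did. The estimate was below 0 for 16 of the 23, against 50.4% of all probe sets, and its median was -0.27. The lowest values were -0.86 ± 0.48 for nad5 257338_s_at and -0.86 ± 0.47 for nad1 257324_at (SE), each less than 2 of its standard errors from 0. A difference between the organs in the Cs response was not detectable for any tested member in these arrays.

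Between organs, few mitochondrial transcripts were called different, and ccb382, the shared nad5 probe set and 1 of the nad1 probe sets were those that were. In Cs plants 1 of the 11 tested members differed between root and shoot past the threshold (9.09%), against 58% of all probe sets tested (percent of calls in either direction), and in control plants 2 of 11 did (18.2%), against 60.3%. Without a filter the counts were the same among all 23, 1 and 2, against 41.9% and 42.9% of all probe sets. The median absolute log2 difference of the 23 was 0.17 in Cs plants and 0.26 in control plants, where all probe sets without a filter had 0.45 and 0.47. These are not probe sets of like signal, since 47.8% of members and 68.2% of all probe sets reached the filter. Differences of dim probe sets are understated, and the median SD between replicates was 0.31 for tested members against 0.24. Whether members differed less than probe sets of like signal was not tested. Plastid-encoded transcripts differed far more, with 66 of 68 tested lower in root in Cs plants and 67 of 68 in control plants, at median log2 differences of -3.08 and -3.25.

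**Figure D3:**
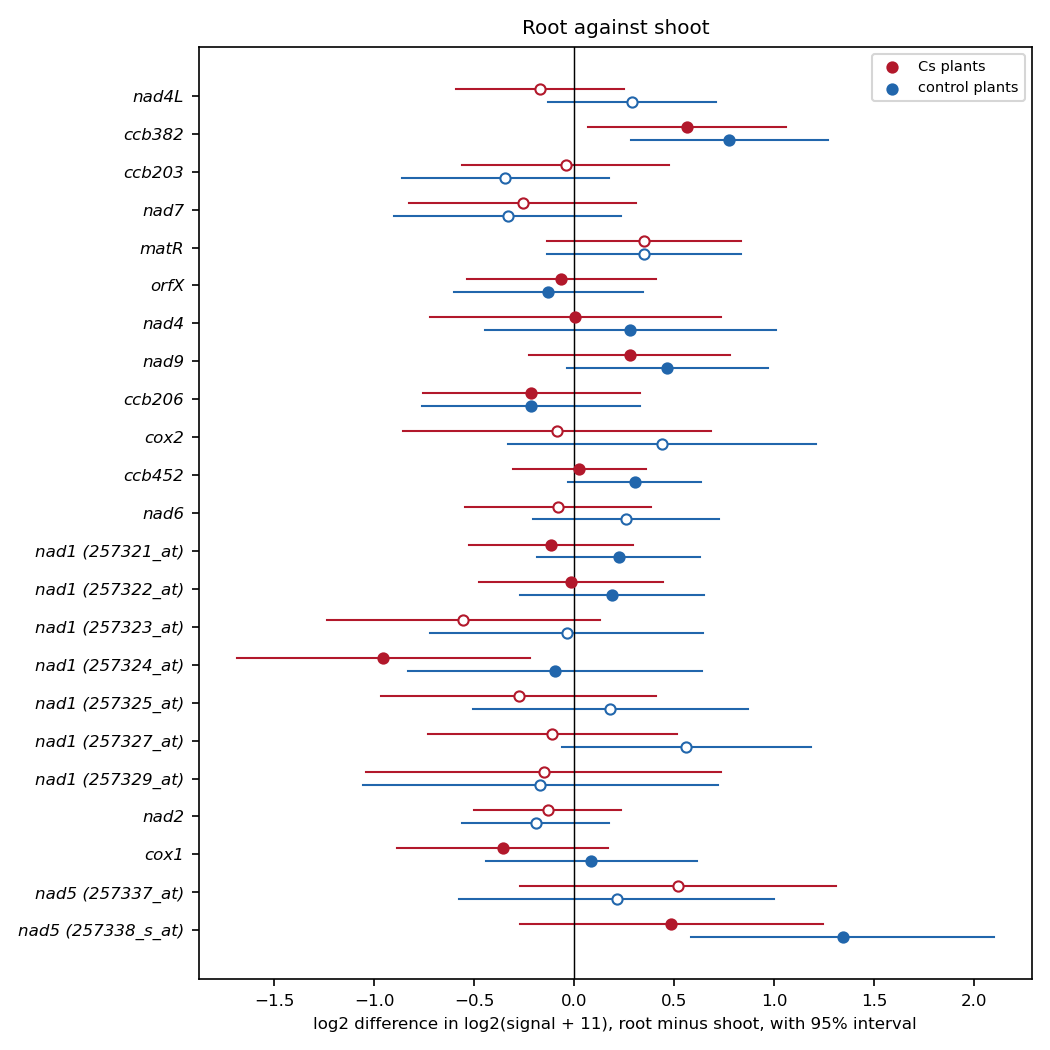
Log2 difference between root and shoot (x axis, on log2(signal + 11), root minus shoot) for all 23 mitochondrial probe sets in Cs plants (red) and control plants (blue), with 95% intervals from the fit without a filter; filled points are the 11 tested probe sets. Most intervals include 0, ccb382 and nad5 257338_s_at stand to the right in control plants and nad1 257324_at to the left in Cs plants.

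The transcript of ccb382 was called higher in root in control plants and just missed the threshold in Cs plants. In Cs plants the signals were 295, 367 and 197 in roots and 162, 203 and 189 in shoots, of which only Cs root 3 fell within the range of the shoots. The log2 difference was 0.56 ± 0.23 (SE; limma adjusted p = 0.0505), just above the threshold of 0.05. Same-numbered arrays deviated together in this comparison. With the replicate number as a block, the limma adjusted p was 0.0306 over all arrays and 0.0443 within the arrays of Cs plants. Either block makes ccb382 a call and brings the count in Cs plants to 2 of 11. It was also called without Cs root 3, at a log2 difference of 0.80 (limma adjusted p = 0.00842), and without control shoot 1, at a limma adjusted p of 0.0367. In control plants the signals were 252, 281 and 356 in roots and 128, 204 and 176 in shoots, with no overlap. There the log2 difference was 0.78 ± 0.23 (SE; limma adjusted p = 0.0109), and 0.64 without control root 3 (limma adjusted p = 0.0504), which ends the call.

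The shared nad5 probe set, 257338_s_at, was called higher in root in control plants. Its signals were 52.0, 44.3 and 36.7 in control roots and 1.85, 17.5 and 16.7 in control shoots, with a wide gap between them. The log2 difference was 1.34 ± 0.34 (SE; limma adjusted p = 0.00455). In Cs plants the signals of 49.6, 31.4 and 17.4 in roots overlapped those of 11.9, 26.6 and 20.0 in shoots, and the log2 difference of 0.48 ± 0.34 (SE; limma adjusted p = 0.242) did not pass. The other nad5 probe set, 257337_at, was too dim to be tested and had log2 differences of 0.52 ± 0.36 in Cs plants and 0.21 ± 0.36 in control plants (SE, no filter). The shared set, 257338_s_at, had entered the tests through root alone.

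One nad1 probe set, 257324_at, was lower in root in Cs plants. Its signals were 17.7, 19.8 and 14.8 in Cs roots and 30.9, 43.8 and 61.4 in Cs shoots, with no overlap. The log2 difference was -0.95 ± 0.33 (SE; limma adjusted p = 0.0257). It had entered the tests through shoot alone, and its root signals were below the filter's limit. The call was lost without Cs shoot 2 (limma adjusted p = 0.057), Cs shoot 3 (0.104), Cs root 1 (0.0534) or Cs root 3 (0.0712), with log2 differences between -0.96 and -0.76. In control plants the same probe set gave 27.5, 17.2 and 15.3 in roots and 7.03, 29.0 and 37.4 in shoots, which overlapped, with a log2 difference of -0.10 ± 0.33 (SE). That value turned on control shoot 1: it was -0.53 without that array (limma adjusted p = 0.0991), and -0.69 without all arrays numbered 1 (limma adjusted p = 0.0287), where it passed the threshold. The other 2 tested nad1 probe sets, 257321_at and 257322_at, had log2 differences of -0.12 ± 0.18 and -0.02 ± 0.20 in Cs plants and 0.22 ± 0.18 and 0.19 ± 0.20 in control plants (SE). All 7 nad1 probe sets were below 0 in Cs plants, as were 42% of all probe sets without a filter, and 3 of 7 in control plants, as were 42.6%.

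The other tested members did not pass in either exposure with all 12 arrays in the fit. The signals of nad9 in control plants, 48.8, 48.0 and 43.3 in roots and 29.9, 37.1 and 25.9 in shoots, did not overlap, at a log2 difference of 0.47 ± 0.22 (SE; limma adjusted p = 0.0857), and passed in the arrays of control plants alone (limma adjusted p = 0.047). With ccb382 and nad5 257338_s_at this made 3 of 23 members with control roots wholly above control shoots, against 31.9% of all probe sets without a filter. In Cs plants 0 of 23 members lay wholly above and 1 wholly below, against 31.8% and 20.1%. For nad4 the log2 difference was 0.01 ± 0.33 in Cs plants and 0.28 ± 0.33 in control plants, and for cox1 -0.36 ± 0.23 in Cs plants and 0.09 ± 0.23 in control plants (SE). For ccb452 it was 0.03 ± 0.15 in Cs plants and 0.30 ± 0.15 in control plants (SE), and without control shoot 2 it passed in control plants, at 0.41 (limma adjusted p = 0.048). In Cs plants cox1 passed without all arrays numbered 1, at -0.68 (limma adjusted p = 0.0157). The values of ccb206, -0.21 ± 0.24 in both exposures, and of orfX, -0.07 ± 0.21 in Cs plants and -0.13 ± 0.21 in control plants (SE), were smaller than their errors. These signs hold relative to the MAS5 scaling: the median of all tested probe sets was itself 0.22 above 0 in Cs plants and 0.24 in control plants, and 0.10 and 0.14 after centring each array on its median. Under that centring, and under quantile normalization, the values of nad4 and ccb452 in Cs plants and of cox1 in control plants were below 0, while no other tested member changed sign between organs.

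**Figure D4:**
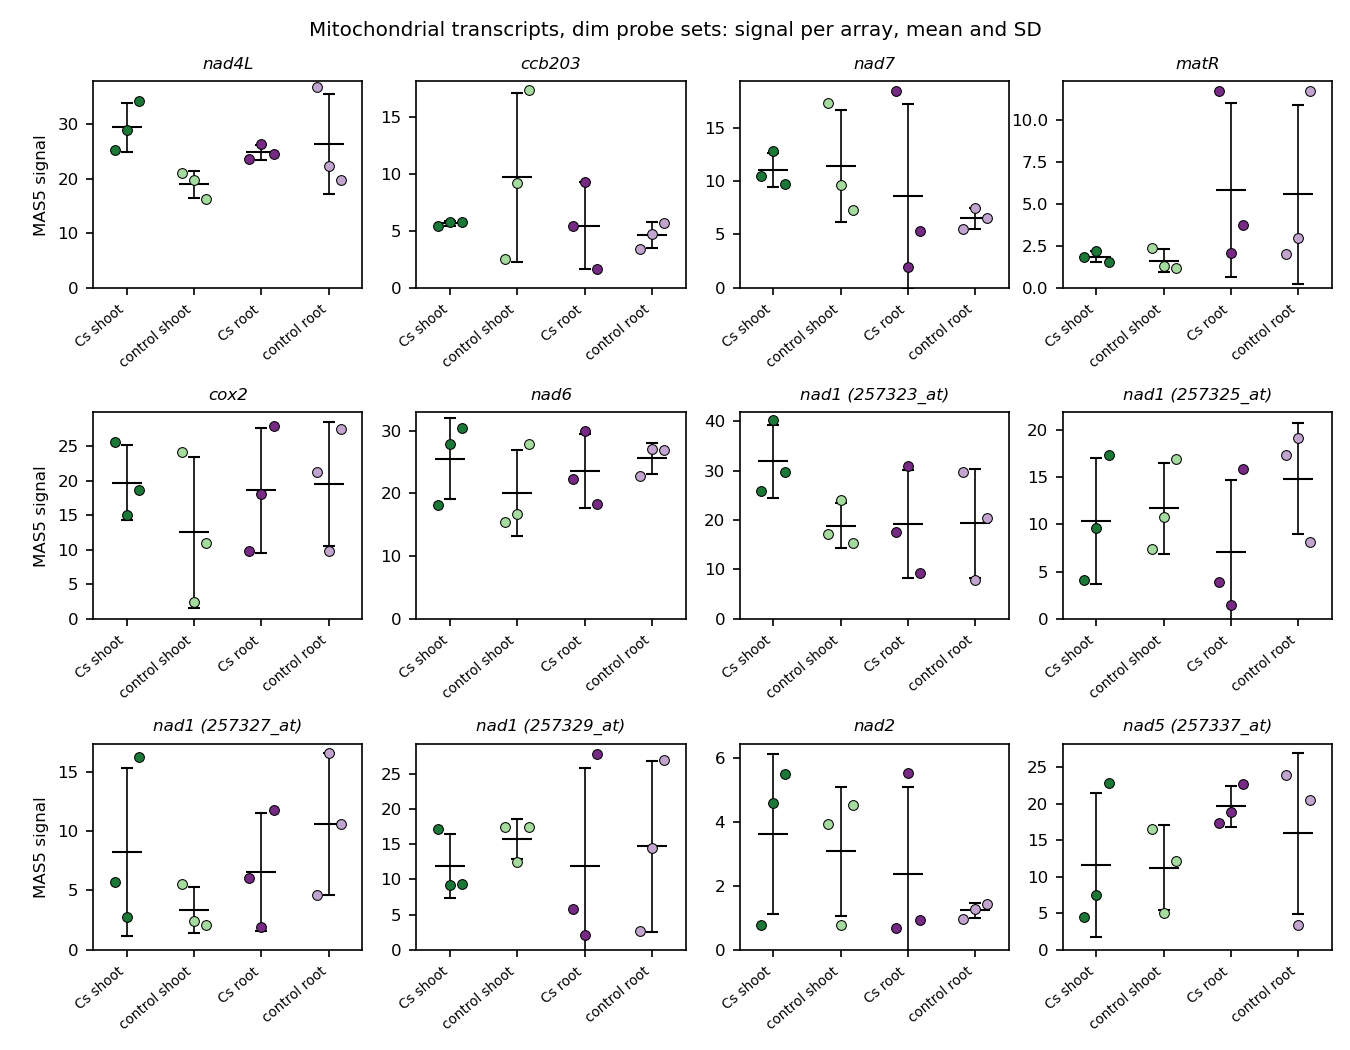
MAS5 signal (linear scale from 0) of the 12 mitochondrial probe sets below the filter on each array, drawn as points by group with means and SDs (n = 3 each); error bars that would reach below 0 end at the axis. Each panel has its own scale, no signal exceeds 40.2, and only nad4L and nad1 257323_at have Cs shoots wholly above control shoots.

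The 12 dim members gave signals between 0.669 and 40.2. Those of nad2 stayed at 0.785, 4.57 and 5.50 in Cs shoots and 3.92, 0.763 and 4.53 in control shoots, and at 0.669, 5.51 and 0.942 in Cs roots and 0.972, 1.28 and 1.44 in control roots. For matR they were 1.84, 2.17 and 1.52 in Cs shoots, 2.39, 1.27 and 1.16 in control shoots, 11.7, 2.05 and 3.72 in Cs roots and 2.02, 2.98 and 11.7 in control roots. Single root arrays stood out for matR, and the groups overlapped for both genes. The signals of cox2 were 25.6, 15.0 and 18.7 in Cs shoots, 24.2, 2.51 and 11.0 in control shoots, 9.89, 18.1 and 28.0 in Cs roots and 21.3, 9.88 and 27.6 in control roots. Those of nad6 were 18.2, 27.9 and 30.4 in Cs shoots, 15.5, 16.7 and 27.9 in control shoots, 22.3, 30.0 and 18.3 in Cs roots and 22.7, 27.1 and 26.9 in control roots. Neither gene had groups apart from each other in any comparison. A low signal on this array is not a measure of how much of the transcript was present, since probe sets differ in response, and levels are not compared between them.

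The lowest values of the tested members were counted per array. In Cs shoot 1, 7 of the 11 tested members were at their group's lowest value, and in control shoot 1, 6 of 11 were, with median log2 deviations from the group mean of -0.30 and -0.11. In Cs root 3, 7 of 11 were lowest, at a median deviation of -0.13. In control root 2, 4 of 11 were lowest, as in control root 3, and 8 of 11 lay below their group mean, at a median deviation of -0.06. Of the highest values, 7 of 11 were in control root 1 and 6 in each of Cs shoot 3 and control shoot 2. The same counts were not made over all probe sets, and the tested nad1 probe sets share a gene. Whether members were low or high together more than other probe sets was therefore not tested. Over all 23 members the median deviation was -0.17 in Cs shoot 1, -0.03 in control shoot 1 and -0.13 in Cs root 3. It was -0.03 in control root 2 and -0.04 in control shoot 2, where that of the 11 tested was 0.20. Over all probe sets the median deviation on each array lay between -0.03 and 0.03. The plastid-encoded transcripts deviated by -0.09 in Cs shoot 1, by -0.22 in control shoot 1, by 0.88 in Cs root 2 and by -0.73 in Cs root 3. The median SD between replicates over the 4 groups was 0.31 for the tested members and 0.24 for all tested probe sets, on the log2 scale. In shoots it was highest for nad1 257324_at, at 0.60, and lowest for ccb452, at 0.16.

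**Figure D5:**
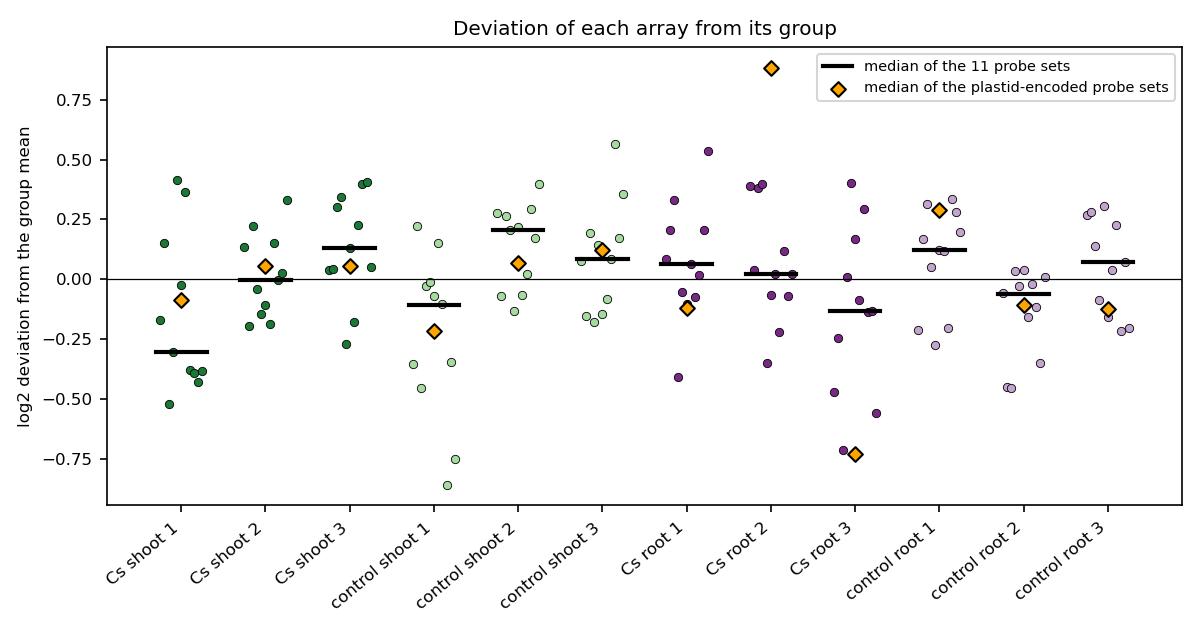
Log2 deviation of the 11 tested mitochondrial probe sets from their group mean on each of the 12 arrays (points), with their median (black bar) and the median of the plastid-encoded probe sets (orange diamond). The mitochondrial medians are lowest in Cs shoot 1 and Cs root 3, most points also lie below 0 in control shoot 1 and control root 2, and 6 of 11 in Cs shoot 2, and the plastid median is farthest from 0 in Cs roots 2 and 3.

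Several genes left out above, such as cob, atp1 and atp9, appear on the 12 probe sets that name a mitochondrial gene together with another gene. Of these 8 were tested, and 11 of the 12 cannot separate the mitochondrial gene from its nuclear copy. In limma 0 of the 8 passed for Cs in shoots or in roots, and 0 of 8 reached an unadjusted p under 0.05. In shoots the log2 differences were 0.07 ± 0.32 for atp1, 0.32 ± 0.42 for atp9, 0.20 ± 0.34 for cob and 0.56 ± 0.37 for the set of rps3 and rpl16 (SE), and in roots they were -0.17 ± 0.32, -0.12 ± 0.42, -0.14 ± 0.34 and -0.14 ± 0.37 in the same order. Among the 8, only the cob set, for cytochrome b of complex III, was called between organs, higher in root in control plants. Of all tested probe sets, 60.3% were called between organs in control plants and 58% in Cs plants. The cob set had entered the tests through root alone, with a mean signal of 20.2 over all shoot arrays. Its signals were 50.4, 31.8 and 44.9 in control roots and 14.3, 14.1 and 21.3 in control shoots, with no overlap, and the log2 difference was 0.95 ± 0.34 (SE; limma adjusted p = 0.0288). In Cs plants its groups overlapped, at a log2 difference of 0.61 ± 0.34 (SE; limma adjusted p = 0.141). For atp9 the signals of 205, 178 and 133 in Cs roots and 164, 423 and 436 in Cs shoots overlapped through Cs shoot 1, at a log2 difference of -0.84 ± 0.42 (SE; limma adjusted p = 0.104).

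Nuclear genes of mitochondrial function were read beside them, from lists written from general knowledge. The lists cover the respiratory complexes, ATP synthase and alternative respiration. They also cover factors of mitochondrial gene expression, DNA maintenance, cytochrome c maturation, and the citric acid cycle with carriers, chaperones and photorespiration. Of 109 such genes, 40 have their own probe set, and 36 probe sets were tested. For Cs 0 of the 36 passed in shoots and 0 in roots, with median log2 differences of 0.03 and -0.07. At an unadjusted p under 0.05 there was 1 in shoots, AT3G15640, a nuclear subunit of complex IV, and 2 in roots, AT3G15640 and AT5G55580. Of all probe sets without a filter, 3.07% reached such a p in shoots and 4.48% in roots, and the counts were not tested against these shares. In roots the log2 difference of AT5G55580 was -0.84 ± 0.21 (SE), with mean signals in both root groups under the filter's limit of 31.2. The signal of AT3G15640 was 219 ± 12.9 in Cs shoots and 151 ± 34.2 in control shoots, and 521 ± 156 in Cs roots and 347 ± 41.4 in control roots (SD, n = 3 each), with log2 differences of 0.53 ± 0.23 in both organs (SE; limma adjusted p = 1). Between organs more of them passed, with 15 higher and 3 lower in root in Cs plants and 16 higher and 4 lower in control plants, where 36.1% and 38% of all probe sets were called higher and 21.9% and 22.3% lower. In these lists the median log2 difference was 0.29 in Cs plants and 0.35 in control plants, near the 0.22 and 0.24 of all tested probe sets.

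Of all probe sets tested, 36.1% were called higher in root in Cs plants and 38% in control plants, and 21.9% and 22.3% lower. The counts of these short lists were not tested against those shares. For complex IV, the 1 tested mitochondrial-genome probe set, that of cox1, did not pass. Among nuclear probe sets of complex IV and its assembly, 5 of 8 rose in root in Cs plants and 6 of 8 in control plants. The largest difference was that of AT3G15640, with log2 differences of 1.16 ± 0.23 in Cs plants (SE; limma adjusted p = 0.000735) and 1.16 ± 0.23 in control plants (SE; limma adjusted p = 0.000718). For complex II, whose subunits are all nuclear-encoded in Arabidopsis, 3 of 4 rose in root in both exposures. Among them were the succinate dehydrogenase flavoprotein genes SDH1-1 and SDH1-2. Their log2 differences were 1.07 ± 0.14 and 1.60 ± 0.30 in Cs plants and 1.10 ± 0.14 and 1.81 ± 0.30 in control plants (SE). SDH1-2 had entered the tests through root alone, with mean signals of 2.39 in Cs shoots and 1.61 in control shoots. Complex III with cytochrome c had 3 of 6 higher in both exposures, including the cytochrome c gene CYTC-1 at 0.64 ± 0.13 in Cs plants and 0.74 ± 0.13 in control plants (SE). For complex I, 1 of 4 rose in Cs plants, and in control plants 1 rose and 1, FRO1, fell. ATP synthase had 1 of 2 higher in both exposures.

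In the alternative respiration list, 1 of 5 rose in root and 2 fell in both exposures. The shares of all probe sets were again 36.1% and 38% higher, and 21.9% and 22.3% lower, in Cs and control plants. NDB2, an external NAD(P)H dehydrogenase, had log2 differences of 0.88 ± 0.20 in Cs plants and 0.82 ± 0.20 in control plants (SE). NDC1, whose product is known from plastids as well as mitochondria, had -1.21 ± 0.15 and -0.98 ± 0.15 (SE). The other that fell had entered the tests through shoot alone, with mean signals of 19.7 in Cs roots and 23.2 in control roots. Of the nuclear factors of mitochondrial gene expression, 1 of 5 rose and 1 fell in both exposures. The one that fell was AT5G55580, an mTERF protein known from plastids, at -2.37 ± 0.21 in Cs plants and -1.50 ± 0.21 in control plants (SE). It had entered the tests through shoot alone, with mean signals in both root groups under the limit of 31.2. The one that rose had entered through root alone, with mean signals of 14.8 in Cs shoots and 17.8 in control shoots. The single probe sets for mitochondrial DNA maintenance (OSB1) and for nuclear cytochrome c maturation (CCMH) did not pass in any comparison, and the list of the citric acid cycle, carriers, chaperones and photorespiration had 0 of 12 genes with their own probe set.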

How the data were processed

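Signals of 22810 probe sets on 12 arrays were analysed. The values are intensities as deposited, made with MAS5 per the submitters' processing notes, which name no version. The 2% trimmed mean of each array is 100, and no detection calls were used. Groups and replicate numbers were read from the sample titles. In the platform annotation 13513 probe sets name 1 gene, 503 several, and 8730 are unlisted, besides 64 controls. Mitochondrial symbols were matched by name to RefSeq (TAIR10.1), and no coordinates or sequences are used.

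Signals were taken as log2(signal + 11). The tests took in 15508 of 22746 probe sets, those whose mean came up to the 40th percentile of shoot or of root. Limma 3.58.1 in R 4.3.3 was fitted with a mean per group and 8 residual degrees of freedom, using lmFit and eBayes (trend by intensity), and Benjamini-Hochberg adjustment over all probe sets tested, at 0.05. The fit was also run on simulated data, and no result here rests on that run. Its noise was independent between arrays, without the pairing described below. Its added changes were larger than the Cs difference of any tested member. The contrasts were Cs minus control within each organ, the root effect minus the shoot effect, and root minus shoot within each exposure. A fit without a filter gave values for all members. Members, lists, tests and alternatives were chosen with earlier results of these data known. Every member was to be named. From the nuclear lists up to 3 genes with the smallest p per contrast could be named.

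Replicate numbers recur in every group, so deviations of same-numbered arrays from their group means were correlated over the tested probe sets. Numbers 1, 2 and 3 gave 0.71, 0.42 and 0.45 between Cs and control shoots, 0.47, -0.02 and 0.40 between Cs and control roots, 0.28, 0.15 and 0.19 between roots and shoots of Cs plants, and 0.23, 0.18 and 0.103 between roots and shoots of control plants. All exceeded 0.1 except in the root comparison, so the numbers were taken to pair the arrays in the other comparisons, on the data and not on any label. Outside the root comparison, number 1 against number 2 or 3 was always below 0. Numbers 2 and 3 were less clearly told apart, at 0.368 for Cs shoot 2 with control shoot 3. Control root 2 with control shoot 3 gave 0.100. The pairing of numbers 2 and 3 is therefore uncertain. The main fit has no term for the replicate number, so the SEs, intervals and p-values from it leave this pairing out. No arrays held identical values (0 pairs). Alternatives changed the filter, the pseudocount, the scaling (array-median centring, quantile normalization), the trend, array weights, the replicate block and the arrays in the fit (1 tissue or exposure alone, or arrays left out), or added probe sets with several genes.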

Additional observations from a re-analysis of the deposited data

How the results depend on the processing

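For Cs in shoots, in roots and for their difference, 0 members passed under all alternatives run. For Cs in roots, with the replicate block in the root arrays alone, 11 of all tested probe sets passed (0.0709%), with no member among them. The median of the members' log2 differences kept its sign under all alternatives in shoots, and was 0.145 without Cs shoot 3. Where 11 members were tested, 9 to 11 of them were above 0 in shoots. Without a filter 18 of 23 were, with the 60th percentile filter 4 of 4, and with probe sets of several genes 19 of 19. Leaving out arrays moved the median between 0.145 and 0.345 in shoots and between -0.127 and 0.049 in roots. The difference between organs had a median of -0.134 with array weights, and leaving out arrays gave -0.387 (without Cs root 2) to -0.175. For root against shoot in Cs plants, 2 members passed with the larger pseudocount (45.3) and with array weights. With the replicate block 2 passed, both over all arrays and within Cs plants, and the block changed no other count of called members by over 1.5 times. Leaving out arrays gave 0 to 2, with 0 without Cs root 1, Cs shoot 2 or Cs shoot 3, and 2 without control shoot 1 or without all arrays numbered 1, when cox1 was called (log2 difference -0.68, limma adjusted p = 0.0157). The median was -0.139 after array-median centring, and -0.148 (without Cs root 1) to 0.091 with arrays left out. For control plants 1 member passed with the 60th percentile filter, which left 4 members, and leaving out arrays gave 1 (without control root 3) to 3 (without control shoot 2, with ccb452, and without all arrays numbered 1, with nad1 257324_at). The arrays of control plants alone also gave 3, with nad9. Of 1263 values of single members under the alternatives, 0 called values changed sign, 5 calls were lost and 11 gained, all between organs. The cause of these changes was not tested. The arrays of 1 tissue alone give no value for the difference between organs. Probe sets near background limit what can be read of the 12 dim members.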
